A study of Rattus norvegicus with 6 samples.

Results

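Gap junctions, desmosomes and N-cadherin junctions couple atrial cardiomyocytes at the intercalated disc, and 10 of their genes were examined in the left atria of rats exposed to rapid atrial pacing (RAP) or to control pacing. The genes were the connexins Gja1, Gja5, Gja4 and Gjc1, the desmosomal genes Dsp, Pkp2, Dsg2, Dsc2 and Jup, and Cdh2. A gene entered when a probe set on the array carried its symbol and no other, and where a gene had more than 1, the brightest on average was used. This held for 7 of the 10 genes, each with 1 probe set, out of 14506 genes named in this way. No such probe set was found for Gjc1, Dsp and Dsg2, which were not analysed here. All 7 exceeded a log2 signal of 5 in at least 1 array, as did 11237 genes in all. The RAP group was 3 adult male Sprague-Dawley rats paced in the atrium at a cycle length of 70 ms for 48 hours, and the control group was 3 such rats paced at 140 ms for the same time. The groups shared the implanted atrial electrode and atenolol, a beta blocker given in the drinking water to slow conduction to the ventricles, so that the ventricular rate was alike. Each RAP rat was operated on, recovered and paced together with 1 control rat, and these pairs are called pairs 1 to 3. RNA from each left atrium was hybridized to 1 whole-transcript array, and per the methods only pairs with RNA of high quality were used.

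Connexins (Cx) are the subunits of gap junction channels, through which ions pass directly from one myocyte to the next. Cx43, the product of Gja1, is the main connexin of working myocardium, Cx40, the product of Gja5, is typical of atrial and conduction system myocytes and of arterial endothelium, and Cx37, the product of Gja4, is mainly endothelial. Desmosomes anchor the desmin filaments of neighbouring myocytes to each other. In them the cadherins desmocollin-2 (Dsc2) and desmoglein-2 (Dsg2) bind plakoglobin (Jup) and plakophilin-2 (Pkp2), which in turn bind desmoplakin (Dsp). N-cadherin (Cdh2) is the classical cadherin of the disc and is linked to actin by catenins. Inherited variants of human desmosomal genes are a known cause of arrhythmogenic cardiomyopathy, and loss of Cx40 or a changed distribution of connexins has been linked to atrial arrhythmia.

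The stretches of 250 bases before the transcription start are shown for the connexins Gja1 and Gja5, because the transcription factors known to act on them were measured on the same arrays, and for Dsc2, the member whose pacing groups did not overlap. They come from RefSeq on the GRCr8 build (chr20:36302314-36302563 on the plus strand for Gja1, chr2:187290977-187291226 on the plus strand for Gja5 and chr18:11757467-11757716 on the minus strand for Dsc2) and run from 5′ to 3′. Capitals mark every match on both strands to the AP-1 motif TGANTCA, the Sp1 motif GGGCGG, the T-box motif GGTGTGA, the NKX2-5 motif TNAAGTG or the GATA motif AGATAA, and no matches overlapped.
Gja1: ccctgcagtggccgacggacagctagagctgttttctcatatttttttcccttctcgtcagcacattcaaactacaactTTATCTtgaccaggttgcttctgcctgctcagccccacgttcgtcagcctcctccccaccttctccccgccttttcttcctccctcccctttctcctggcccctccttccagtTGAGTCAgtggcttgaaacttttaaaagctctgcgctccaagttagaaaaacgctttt
Gja5: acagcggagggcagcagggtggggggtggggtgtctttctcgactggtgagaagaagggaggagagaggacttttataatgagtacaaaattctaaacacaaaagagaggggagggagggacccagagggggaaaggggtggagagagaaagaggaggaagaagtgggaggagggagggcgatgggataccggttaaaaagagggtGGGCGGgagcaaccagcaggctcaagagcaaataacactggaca
Dsc2: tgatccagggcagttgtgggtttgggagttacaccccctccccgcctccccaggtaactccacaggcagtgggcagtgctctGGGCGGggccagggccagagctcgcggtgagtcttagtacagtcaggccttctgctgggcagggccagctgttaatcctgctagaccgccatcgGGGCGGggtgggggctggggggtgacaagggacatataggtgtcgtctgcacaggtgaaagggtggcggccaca
The Gja1 stretch held 1 AP-1 match, at position -58 from the start, and 1 GATA match, at -171. AP-1 matches were found in 6.34% and GATA matches in 10.3% of the 33469 rat promoters of this length. The Gja5 stretch held 1 Sp1 match and the Dsc2 stretch 2. Of the 7 genes among the 10 with a promoter in the RefSeq table, 6 had an Sp1 match, all except Gja1, against 30.5% of all promoters, and none had a T-box match (3.22% of all promoters) or an NKX2-5 match (9.89%). The 7 promoters had between 51.2 and 75.2% G and C, against a median of 51.2% over all promoters. A match is a string of letters and not a bound site. Pkp2, Cdh2 and Gjc1 have no entry in the table.

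The array of control 3 stood apart from the other 5 in 2 marker lists. Its markers of ventricular cardiomyocytes (9 genes) lay 1.01 above the genes' means over the 6 arrays on the log2 scale, against -0.60 to 0.26 on the other arrays, and Myl2, the ventricular myosin light chain, had a log2 signal of 8.60 there and between 4.28 and 4.89 elsewhere. Red blood cell markers (6 genes) stood at 1.86 in control 3 and between -0.81 and -0.09 elsewhere. The tissue label was borne out on all 6 arrays by the atrial markers Myl7 (13.61 to 13.76) and Nppa (13.40 to 13.59). Other arrays were extreme in other measures. On the first principal component (41.2% of the variance) RAP 1, 2 and 3 lay at 11.9, 41.5 and -5.64, against -30.6, -35.1 and 17.9 for control 1, 2 and 3, so that control 3 lay between RAP 1 and RAP 2. Calls that changed without control 3 or without a pair are given with the results. The tissue was bulk atrium, in which fewer cells of a type and less RNA per cell cannot be told apart.

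Pkp2, the desmosomal plaque protein plakophilin-2, was higher with RAP in each pair. With p taken from limma, it was the single gene of the 7 that passed the study's thresholds. With p from the methods' own paired test, Pkp2 did not pass, and neither did any other of the 7. The thresholds ask for a p under 0.05 without adjustment and more than a 1.3-fold difference. The log2 signal of Pkp2 was 9.004, 9.36 and 9.56 in RAP 1, 2 and 3, against 8.33, 8.15 and 9.035 in control 1, 2 and 3. RAP was higher in each pair, but RAP 1 lay just below control 3, so that the groups overlapped. The group means were 9.31 ± 0.28 for RAP and 8.50 ± 0.47 for control pacing (SD, n = 3 each). The change, here always log2 RAP minus control, was 0.67, 1.21 and 0.53 in pairs 1, 2 and 3, with a mean of 0.80, a 1.74-fold difference. Its standard error (SE) was 0.18 and its 95% confidence interval 0.32 to 1.28 in limma, in a model that held the pairs as blocks. The unadjusted p was 0.00808, and after Benjamini-Hochberg adjustment over 19907 probe sets limma gave adjusted p = 0.756, so the gene is called only by the unadjusted threshold. By that rule 2.94% of the 11237 genes were higher, 3.45% lower and 6.39% either, and 2.99% of the probe sets were higher, 2.94% lower and 5.93% either. By p, Pkp2 ranked 104th among the 11237 genes.

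The call of Pkp2 held in each of the 3 fits that left out a pair, with changes of 0.60 to 0.94, while in those fits 0.516% (without pair 1), 1.46% (without pair 2) and 9.49% (without pair 3) of all genes were higher. With control 3 alone left out and no pairing, the change was 1.07 (SE 0.20, limma adjusted p = 0.163). Without pairing it did not pass when RAP 3 (0.67), control 1 (0.72) or control 2 (0.62) was left out, each by limma with an unadjusted p of 0.0595 to 0.0651. The methods' paired t-test on the same values gave an unadjusted p of 0.0606, which misses the threshold.

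**Figure D1:**
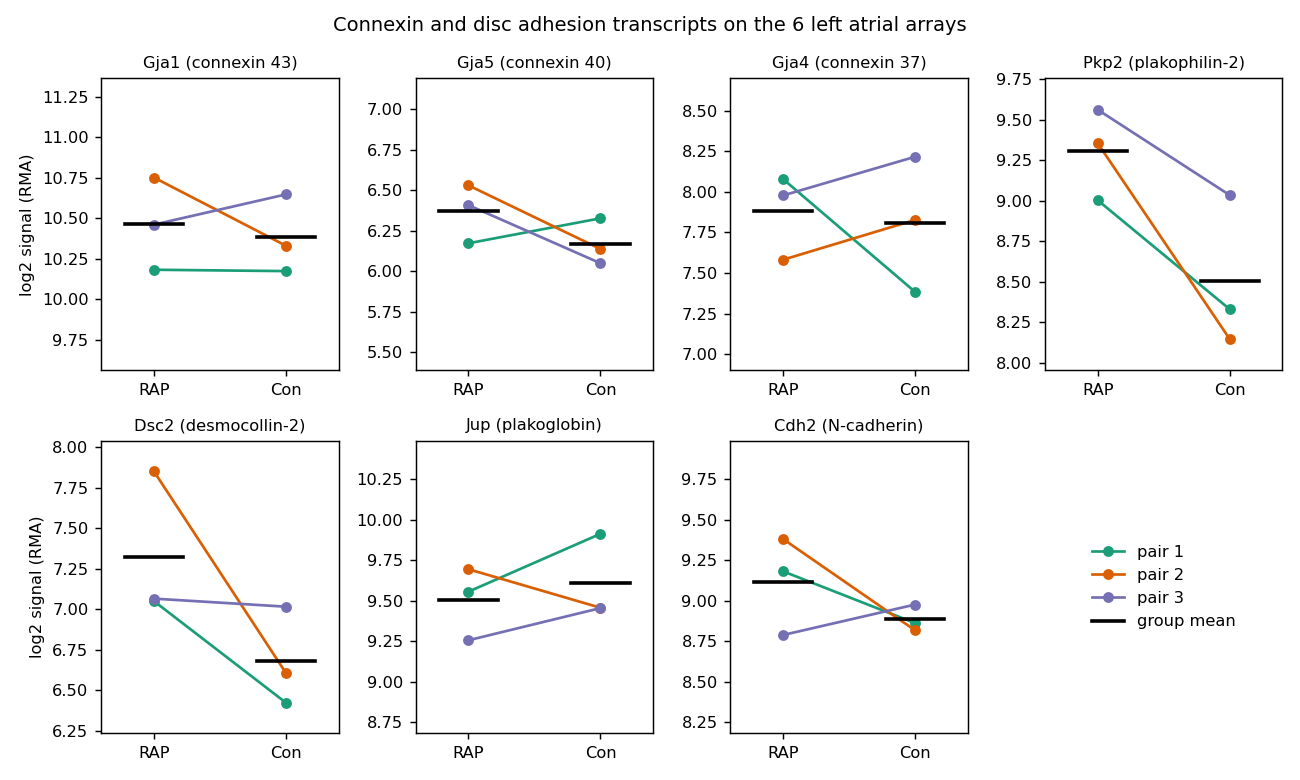
Log2 signal of the 7 measured genes on the 6 arrays, RAP on the left and control pacing (Con) on the right of each panel, with a line between the 2 arrays of each pair and group means as black bars; every panel spans the same 1.8 log2 units. Pkp2 and Dsc2 are higher with RAP in each pair, and in Dsc2 all 3 RAP arrays (7.05 to 7.85) lie above all 3 control arrays (6.42 to 7.02).

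Dsc2, the cadherin that spans the desmosome, was higher with RAP on average but narrowly missed the threshold. Its log2 signal was 7.05, 7.85 and 7.07 in RAP 1, 2 and 3, against 6.42, 6.61 and 7.02 in control 1, 2 and 3. All RAP arrays lay above all control arrays, as held for 7.57% of the genes tested (7.85% had all below and 15.4% either), yet RAP 1 and RAP 3 were only just above control 3. The changes in pairs 1, 2 and 3 were 0.63, 1.24 and 0.05, with a mean of 0.64 (SE 0.26, 95% confidence interval -0.03 to 1.31, limma adjusted p = 0.756), and the unadjusted p was 0.0570. Pair 2 was the widest, and RAP 2 held the highest of the 6 values. Without the pair as a block Dsc2 passed, with an unadjusted limma p of 0.0454, as it did without pair 3 (0.94) and without control 3 alone and no pairing (0.81). In those fits 3.62, 9.49 and 6.85% of all genes were higher. Without pair 2 the change was 0.34, and without RAP 2 alone and no pairing it was 0.38, and neither passed.

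Jup and Cdh2 did not pass. Plakoglobin, which is part of desmosomes and of N-cadherin junctions alike, had a Jup signal of 9.56, 9.69 and 9.26 in RAP 1, 2 and 3, against 9.91, 9.46 and 9.46 in control 1, 2 and 3. The groups overlapped, and the pairs ran both ways (-0.36, 0.24 and -0.20), with a mean change of -0.11 (SE 0.17, interval -0.55 to 0.34). Cdh2 stood at 9.18, 9.38 and 8.79 in RAP 1, 2 and 3, against 8.86, 8.82 and 8.98 in control 1, 2 and 3. RAP 1 and RAP 2 were above every control array and RAP 3 was below every one. The Cdh2 change was 0.32, 0.56 and -0.19 by pair, with a mean of 0.23 (SE 0.19, interval -0.27 to 0.73, limma adjusted p = 0.810), and it passed without pair 3 (0.44) and, unpaired, without RAP 3 alone (0.40). Of all genes 9.49% and 4.76% were higher in those fits. The controls were close to each other in Cdh2 (SD 0.08, against 0.30 with RAP, n = 3 each). Over the 4 measured adhesion genes the median change was 0.44, against -0.0074 over all genes tested and 0.55 over 11 cardiomyocyte markers. The mean of the 4 genes was 0.32, 0.81 and 0.05 in pairs 1, 2 and 3.

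None of the 3 measured connexins passed. Gja1, the gene of Cx43, had a log2 signal of 10.18, 10.75 and 10.46 in RAP 1, 2 and 3, against 10.18, 10.33 and 10.65 in control 1, 2 and 3. The lowest and the highest arrays of the groups nearly coincided, and the changes by pair were 0.01, 0.42 and -0.19. The mean change was 0.08 (SE 0.17, limma adjusted p = 0.918), and its 95% confidence interval of -0.37 to 0.53 spans a 1.3-fold difference upward and nearly one downward, so that a moderate change of Gja1 was not detectable with 3 pairs.

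Gja5, the gene of Cx40, had a log2 signal of 6.17, 6.53 and 6.41 in RAP 1, 2 and 3, against 6.33, 6.14 and 6.05 in control 1, 2 and 3. RAP was higher in pairs 2 and 3 (0.39 and 0.36) and lower in pair 1 (-0.15), and the groups overlapped in RAP 1 and control 1. The mean change was 0.20 (SE 0.17, interval -0.24 to 0.64, limma adjusted p = 0.814). Gja4, the endothelial Cx37, stood at 8.08, 7.58 and 7.98 in RAP 1, 2 and 3, against 7.38, 7.83 and 8.22 in control 1, 2 and 3. Its change was 0.70 in pair 1 and -0.25 and -0.24 in pairs 2 and 3, a mean of 0.07 (SE 0.24, interval -0.55 to 0.69). The controls spread more widely in Gja4 than in any other of the 3 connexins (SD 0.42, n = 3), with control 1 lowest, where endothelial markers (12 genes) were also lowest, at -0.36 against -0.03 to 0.22 on the other arrays. The part of the endothelium in the Gja4 values was not tested.

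**Figure D2:**
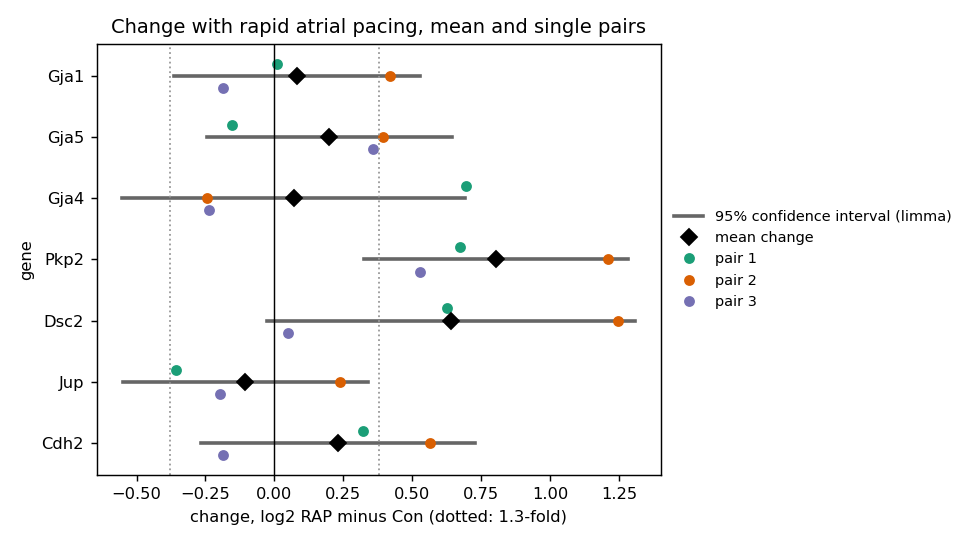
Change of each of the 7 genes (log2 RAP minus control) as the mean (diamond) with its 95% confidence interval from limma, and in pairs 1 to 3 (coloured points); dotted lines mark a 1.3-fold difference. The interval of Pkp2 (0.32 to 1.28) is the one that leaves out 0, and pair 2 lies highest in 6 of the 7 genes.

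The balance of Cx40 to Cx43 was taken as the Gja5 minus Gja1 difference on each array, which can show unequal change only. It moved by -0.16, -0.03 and 0.54 log2 units in pairs 1, 2 and 3, a mean of 0.12 ± 0.38 (SD, n = 3 pairs), which is less than the spread between pairs (exact two-sided sign-flip permutation test, p = 1, the smallest possible being 0.25). Without pairing the exact two-sided permutation test over the 6 arrays gave p = 0.8, where 0.1 is the smallest possible. Pair 3, in which Gja5 was higher and Gja1 lower with RAP, differed from the other pairs.

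Across the 6 arrays the 7 genes did not form a single pattern. Dsc2 ran most nearly with Cdh2 (Pearson r 0.81), Pkp2 (0.77) and Gja1 (0.77), whereas Jup ran against Gja4 (-0.78) and Gja4 against Gja5 (-0.63). These are descriptions over 6 arrays that share the pacing groups and the tissue mixture. RAP 2 held the highest value in Gja1, Gja5, Dsc2 and Cdh2, and RAP 3 in Pkp2. Pkp2 and Dsc2 were higher in every pair, as were 14.3% of all genes, and 0 of the 7 genes were lower in every pair, against 14.1% of all genes (28.4% in either direction).

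The disc genes were set beside the markers of the cell types that carry them. Cardiomyocyte markers (11 genes, with list means of 11.63 to 12.14 with RAP and 11.10 to 11.58 with control pacing) deviated from their means by 0.18, 0.59 and 0.07 in RAP 1, 2 and 3, against -0.41, -0.45 and 0.03 in control 1, 2 and 3. Pkp2 deviated by 0.10, 0.45 and 0.66 on the RAP arrays, against -0.57, -0.76 and 0.13 on the control arrays, and Dsc2 by 0.05, 0.85 and 0.06, against -0.58, -0.40 and 0.01. Both genes and the markers were low in control 1 and control 2 and near their means in control 3. On RAP 3 Pkp2 was at its highest (0.66) while the markers stood at 0.07. In pair 3 Pkp2 changed by 0.53, against a mean of 0.04 for the markers. The part of the cardiomyocytes in the changes of both genes was not tested. Of the 11 markers 5 rose and 0 fell, against 2.94% and 3.45% of all genes, and all 11 had a positive change, with a median of 0.55. Without pairs 1, 2 and 3 in turn 0, 0 and 10 of them rose, against 0.516, 1.46 and 9.49% of all genes. Without control 3 alone and no pairing 10 rose, against 6.85% of all genes. By the methods' paired t-test 0 rose, against 1.06%. Relative to the mean of these markers on the same array, a scale chosen after the values were seen, Pkp2 changed by 0.08, 0.17 and 0.48 in pairs 1, 2 and 3 (mean 0.24 ± 0.21, SD, n = 3 pairs) and Dsc2 by 0.04, 0.20 and 0.01 (0.08 ± 0.11). On that scale neither passed by limma (adjusted p = 0.601 for Pkp2 and adjusted p = 0.860 for Dsc2). The limma SE was 0.41 for both genes, and 0.0445% of all genes were higher and 18.1% lower. A rise could thus hardly pass there, and the missing calls say little about these 2 genes. The median of all genes was -0.57, and the means of Gja1 (-0.48 ± 0.21), Gja5 (-0.36 ± 0.59), Gja4 (-0.49 ± 0.72) and Cdh2 (-0.33 ± 0.13) had the opposite sign to those on the deposited scale, though each stood above that median. Jup, at -0.66 ± 0.37, stood below it.

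Fibroblast and macrophage markers ran the other way on several arrays. Fibroblast markers (12 genes) stood at -0.16, -0.75 and 0.39 in RAP 1, 2 and 3, against 0.17, 0.74 and -0.38 in control 1, 2 and 3. Macrophage markers (13 genes) stood at -0.30, -0.71 and 0.26, against 0.19, 1.11 and -0.54. Adipocyte markers (10 genes, of which 4 rose and 0 fell, against 2.94% and 3.45% of all genes) stood at -0.39, -0.092 and 1.10, against -0.74, -0.25 and 0.37, highest in RAP 3, where Pkp2 was highest too. The part of these cell types in the values of Pkp2, Dsc2 and the other genes was not tested.

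**Figure D3:**
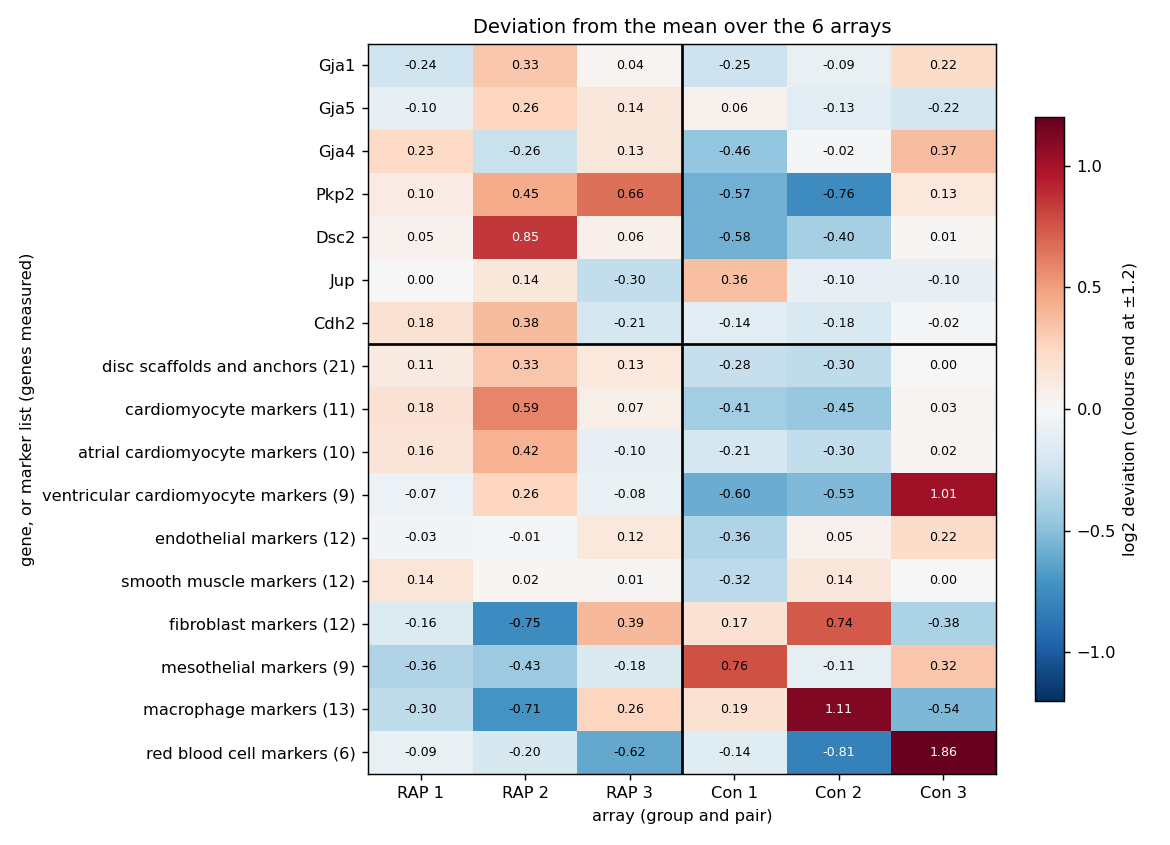
Log2 deviation of each gene, or of the mean of a marker list, from its mean over the 6 arrays, with the RAP arrays left of the vertical line and control pacing (Con) on the right; the number of genes measured follows each list. Pkp2, Dsc2 and the cardiomyocyte markers are all lowest in Con 1 and Con 2, and the ventricular (1.01) and red blood cell (1.86) markers peak in Con 3.

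Among other genes of cell coupling and adhesion, the rises lay in the list of scaffolds and anchors of the intercalated disc. The lists of related genes were written from textbook knowledge, but with earlier results of these data known. Of 21 measured scaffold and anchor genes 7 rose and 0 fell, against 2.94% and 3.45% of all genes, with a median change of 0.29. The largest rise was that of Xirp2, an actin-binding Xin repeat protein of the disc, with 10.03, 10.08 and 9.73 in RAP 1, 2 and 3, against 8.17, 8.56 and 9.48 in control 1, 2 and 3. Its RAP arrays all lay above the controls, of which control 3 came closest (change 1.21, SE 0.34, limma adjusted p = 0.756). Nrap, an anchor of actin filaments at the disc, followed (1.11, SE 0.30), then Des, the desmin that desmosomes tether (0.85, SE 0.14), and Sorbs2, an adaptor of Z-discs and the disc (0.83, SE 0.18). The other 3 that rose changed by 0.62 to 0.80.

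Tjp1, the ZO-1 scaffold that binds Cx43, did not pass (-0.21, SE 0.21), and neither did Cxadr, a receptor at the disc (0.15, SE 0.18). Of the 21 genes 1, 5 and 10 rose and 0, 0 and 1 fell without pairs 1, 2 and 3 in turn. Of all genes 0.516, 1.46 and 9.49% rose and 0.943, 1.9 and 12.7% fell in those fits. Without control 3 alone and no pairing 8 rose and 0 fell, against 6.85% and 8.55% of all genes. By the methods' paired t-test 2 rose and 0 fell, against 1.06% and 1.02%. The scaffold list deviated by 0.11, 0.33 and 0.13 on the RAP arrays, against -0.28, -0.30 and 0.00 on the control arrays, much as the cardiomyocyte markers did. On the scale relative to those markers 0 of the 21 rose and 1 fell, where 0.0445% of all genes were higher and 18.1% lower. The part of the cardiomyocytes in the scaffold values was not tested.

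**Figure D4:**
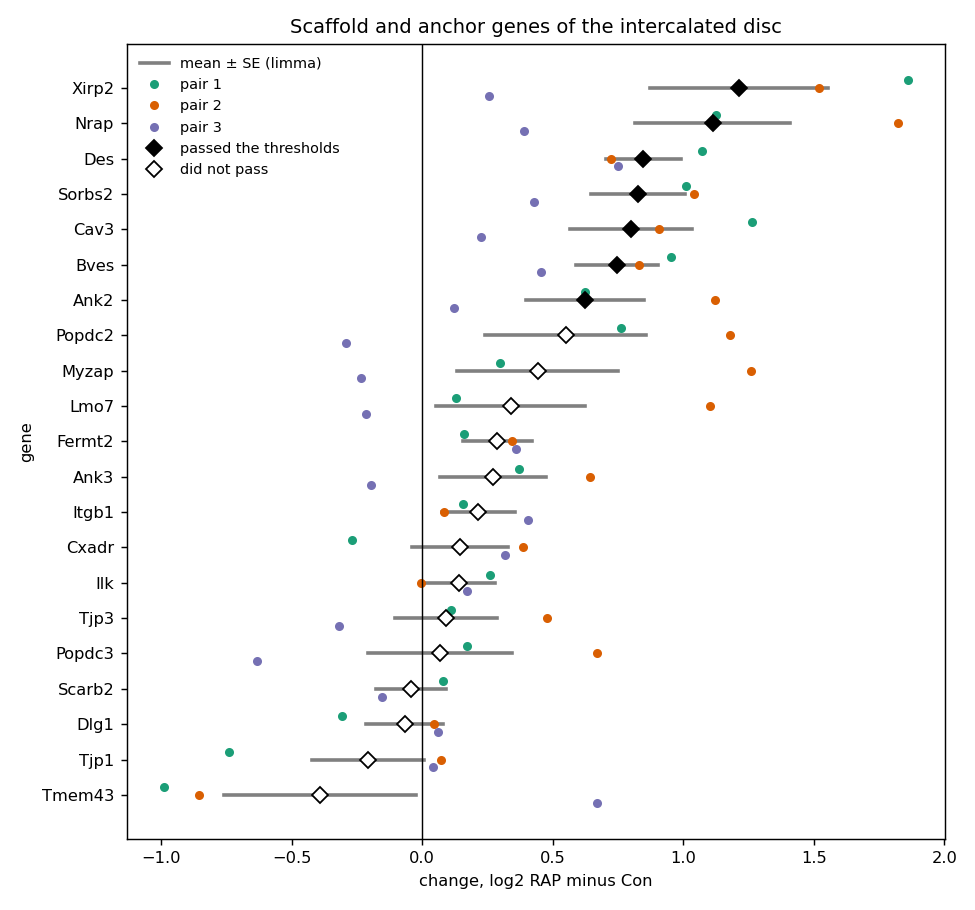
Change (log2 RAP minus control) of the 21 measured scaffold and anchor genes of the intercalated disc, as the mean (diamond, filled where the gene passed the thresholds) with its SE from limma, and in pairs 1 to 3 (coloured points). All 7 genes that passed are higher in each pair, led by Xirp2 (1.21) and Nrap (1.11), and pair 3 is the lowest pair in 6 of these 7.

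Catenins, other connexins and other desmosome genes gave no gene past the thresholds in the paired fit to all 6 arrays. Without control 3 alone and no pairing, 2 catenin and adherens junction genes rose and 1 fell, 1 of the other connexins and pannexins fell and none of the other desmosome genes passed, while 6.85% of all genes rose and 8.55% fell. Of 11 catenins and other adherens junction genes 0 rose and 0 fell, the largest difference being that of Nectin2, an adhesion protein of the immunoglobulin family (-0.53, SE 0.24, with -0.65, -1.001 and 0.063 in pairs 1, 2 and 3). Ctnna1, the alpha-catenin that links N-cadherin to actin, was singled out after its values were seen, since it had an unadjusted p of 0.0425 by limma and a change of 0.37 (SE 0.13), just under 1.3-fold, with all RAP arrays (10.67 to 10.91) above all controls (10.24 to 10.48). Of 6 other connexins and pannexins 0 passed. Gjb5, an epithelial connexin, differed most, with 5.64, 5.21 and 5.54 in RAP 1, 2 and 3, against 7.07, 6.40 and 5.31 in control 1, 2 and 3 (-0.80, SE 0.36). Of 5 other desmosome genes, mostly of epithelia, 0 passed. Ppl, periplakin, differed most (-0.49, SE 0.27) and was highest in control 1, at 9.18 against 7.45 to 7.99 on the other arrays. Mesothelial markers (9 genes) were highest in control 1 as well, at 0.76, and their part in the Ppl and Gjb5 values was not tested.

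Genes known to act on connexins were set beside them, with 2.94% of all genes higher and 3.45% lower. Of 18 kinases, phosphatases and handling factors of Cx43, Src, a tyrosine kinase that phosphorylates Cx43, fell, with 6.99, 6.78 and 7.13 in RAP 1, 2 and 3, against 7.78, 7.66 and 7.25 in control 1, 2 and 3 (change -0.60, SE 0.20, limma adjusted p = 0.756). Each RAP array lay below each control, by the least margin in pair 3. It was the 1 gene of this list that passed, a share near that of all genes, and 0 of the list passed without pair 1, without pair 2 or by the methods' paired t-test. Without control 3 alone and no pairing 1 rose and 2 fell, against 6.85% and 8.55% of all genes. Of 14 transcription factors of the Gja1 and Gja5 genes 0 rose and 2 fell. Without pairs 1, 2 and 3 in turn 0, 0 and 5 rose and 1, 1 and 2 fell. Of all genes 0.516, 1.46 and 9.49% rose and 0.943, 1.9 and 12.7% fell in those fits. With array weights 4 rose and 3 fell, against 10.3% and 13.3% of all genes. Unpaired, 3 rose and 2 fell without RAP 3, against 4.76% and 5.42% of all genes. Without control 3 alone 1 rose and 2 fell, against 6.85% and 8.55%. Tbx18, a T-box factor of the epicardium and the sinus horns, had 8.10, 8.21 and 8.16 in RAP 1, 2 and 3, against 9.92, 9.15 and 9.34 in control 1, 2 and 3 (-1.31, SE 0.21, limma adjusted p = 0.756). The groups were well apart. Of the 9 mesothelial markers 0 rose and 3 fell, against 2.94% and 3.45% of all genes. Among those that fell were Wt1, also epicardial (-0.85, SE 0.19), and Msln (-0.71, SE 0.14). The changes of 2 of the 9 were positive, Krt19 (0.06, SE 0.41) and Krt7 (0.02, SE 0.15). The part of the mesothelium and epicardium in the Tbx18 value was not tested. Jun, a component of AP-1, for which the Gja1 promoter printed above holds a match, had 8.90, 8.82 and 8.81 in RAP 1, 2 and 3, against 9.31, 9.25 and 9.45 in control 1, 2 and 3 (-0.49, SE 0.13, limma adjusted p = 0.756). Jun was lower with RAP in each pair by 0.41 to 0.64. Fos, another AP-1 gene of the list, did not pass (-0.22, SE 0.15). The part of Jun in the Gja1 values, whose change had an interval of -0.37 to 0.53, was not tested. Tbx5 (0.46, SE 0.23) and Nkx2-5 (0.41, SE 0.25), the activators of Gja5, were higher in pairs 1 and 2 and lower in pair 3 and did not pass, and the repressors Tbx2 (0.02, SE 0.13) and Tbx3 (-0.02, SE 0.17) did not either.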

How the data were processed

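Left atrial RNA of 3 RAP and 3 control-paced rats was hybridized to Rat Gene 1.0 ST arrays, 1 per rat. The deposited log2 signals were made by the authors from the scans with RMA, robust multiarray averaging, in Partek software at default settings (background correction, quantile normalization, probe summary), and were used as deposited, with a software version not given in the sources used here. Quantile normalization sets every probe set relative to the others on its array. The median log2 signal was 5.82 to 5.85 and between 62.6 and 63.8% of probe sets exceeded 5 on each array.

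Symbols came from the platform annotation (15310 probe sets with 1 symbol, 323 with several, 13581 with none). The 19907 probe sets above 5 in at least 1 array were fitted with limma 3.58.1 in R 4.3.3, with the pair as a block (2 residual and 2.76 prior degrees of freedom). Lists and figures were made in Python with pandas 2.3.3. P-values were adjusted by Benjamini and Hochberg over those probe sets. The methods describe the pairs, and arrays were matched by the replicate number in the labels, which do not name pairs. With this matching the methods' paired t-test passed 395 probe sets, the number given in the paper. The paper also reported clear likeness within each pair by principal component analysis, without showing it. The deviations of paired arrays correlated at 0.22, -0.24 and -0.32 in pairs 1, 2 and 3 over 19907 probe sets. In the paired fit to 6 arrays, p-values measure the spread of the RAP minus control difference between these pairs of rats, moderated across probe sets. The fit was tested on simulated data.

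The members and lists were chosen with earlier results of these data known. Named are the 10 genes, up to 4 genes past the thresholds from each related list, or else the gene with the largest difference, and for Gja1, Gja5 and Pkp2 the 3 genes most like them. A gene of the Gja5 group is not reported here. The same rule for Dsp had no probe set. Ctnna1, Tjp1, Cxadr, Fos, Tbx5, Nkx2-5, Tbx2, Tbx3 and the single marker genes were named outside this rule, with their values known. Alternatives were the pairing, the methods' paired test, the variance model, array weights, filters (none, or above 6 in at least 3 arrays), normalization, the probe set rule, and leaving out pairs or single arrays. The scale relative to cardiomyocyte markers was added after seeing the data.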

Additional observations from a re-analysis of the deposited data

How the results depend on the processing

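Over 19 alternatives Pkp2 kept its direction, with changes from 0.24 to 1.07, and passed the thresholds in 14. Dsc2 kept its direction in all 19 and passed in 7. The number of the 7 genes past the thresholds upward was 1 as reported, 2 with no replicate block (Pkp2 and Dsc2) and 0 by the methods' paired t-test. It was 3 with array weights (Gja4, Pkp2 and Dsc2), 2 with no filter on dim probe sets and 0 relative to the cardiomyocyte markers. Of all genes 3.62, 1.06, 10.3, 2.79 and 0.0445% were higher under these alternatives in turn. The number was between 1 and 3 when a pair was left out, where 0.516 to 9.49% of all genes were higher. Unpaired, it was 2 without RAP 1, RAP 3 or control 3 (3.6, 4.76 and 6.85% of all genes higher). It was 0 without control 1 or control 2 (1.4 and 1.76%). Downward it was 0 under every alternative. Of the 75 measured genes of the 6 related lists 10 passed in either direction, against 4 by the methods' paired t-test, 25 with array weights and between 2 and 24 with a pair left out (18 without control 3 alone). Of all genes 6.39, 2.08, 23.6 and between 1.46 and 22.1% passed in those fits (15.4% without control 3 alone). Of all 19907 probe sets 1180 passed, against 395, 4393 and between 278 and 3887 (unpaired, 1807 without RAP 3, 751 without control 1 and 2480 without control 3), and 3316 relative to the cardiomyocyte markers.

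With array weights Gja5 changed by -0.067. Relative to the cardiomyocyte markers, where the median of all genes was -0.57, the changes of Gja1 (-0.48), Gja5 (-0.36), Gja4 (-0.49) and Cdh2 (-0.33) were negative. Without pairs 1, 2 and 3 in turn, Gja1 ranged from -0.089 to 0.21, Gja4 from -0.24 to 0.23 and Jup from -0.28 to 0.020. Unpaired and with 1 array left out, the signs that turned were those of Gja1 without RAP 2 (-0.062) or control 1 (-0.024), Gja4 without RAP 1 (-0.029) or control 1 (-0.14) and Jup without RAP 3 (0.017) or control 1 (0.047), none of them called. The cause was not tested. The Gja5 minus Gja1 difference stayed between -0.095 and 0.26. The block changed the call of Dsc2 and of no other of the 7 genes. Gja5 was the dimmest of the 7 genes, at 6.05 to 6.53, against array medians of 5.82 to 5.85. The 3 pairs limit the precision.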

Other observations

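The genes whose pattern over the 6 arrays was most like that of Pkp2, among 6294 genes with a mean log2 signal above 7, were Vdac2, a channel of the outer mitochondrial membrane (Pearson r 0.997), Eif5b, a factor of translation initiation (0.993), and Tmem182, a membrane protein of muscle (0.992). Vdac2 stood at 10.40, 10.64 and 10.71 in RAP 1, 2 and 3, against 10.05, 9.98 and 10.40 in control 1, 2 and 3 (change 0.44, SE 0.14). Tmem182 stood at 8.39, 8.84 and 8.91, against 7.67, 7.54 and 8.30 (change 0.88, SE 0.19), and the change of Eif5b was 0.19 (SE 0.13). These genes were chosen for their likeness to Pkp2, so their changes are a description. With only 6 arrays 248 genes had an r above 0.9 with Pkp2, so the order among them is loose.

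Gja5 was followed most closely by Homer2, a scaffold protein of calcium signaling (r 0.988), with 7.33, 7.78 and 7.56 in RAP 1, 2 and 3, against 7.57, 7.30 and 7.16 in control 1, 2 and 3, and Tob2, an antiproliferative protein, was also among the 3 most alike (0.958). Gja1 was followed by Ino80c (0.975), a subunit of a chromatin remodeling complex, Yipf4 (0.970) and Rasl11b (0.968), none of which passed the thresholds. The number of genes above an r of 0.9 was 16 for Gja5 and 38 for Gja1.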
